A study of Drosophila melanogaster with 2 samples.

Results

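Peaks called for a tagged homeodomain protein were examined around 10 of 13968 annotated Drosophila melanogaster coding genes. These 10 encode insulator proteins and promoter-binding factors. The genes are Cp190, Chro, BEAF-32, CTCF, su(Hw), mod(mdg4), pzg, pita, Dref and Adf1. They were picked by name with the peaks of these lists already known. Their peaks were taken as summits in the gene or within 5000 bp of it, so they are given as a description and carry no test. The experiment was chromatin immunoprecipitation followed by sequencing on whole embryos, 0 to 24 h old, from the strain Ptx1-GFP, which carries an insertion targeting Ptx1 and expresses a Ptx1-eGFP fusion. The 2 biological replicates form 1 group, both with the fusion, and no control sample was analysed here. The description names an antibody against GFP, and the antibody field names Ptx1. What drives the fusion, and whether the untagged protein is also present, is not stated in the labels. Whole embryos mix many tissues and stages, so occupancy in few cells and weak occupancy in many cannot be told apart. Each peak has a score given by the authors, with no stated unit, which serves here to rank peaks within a list.

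Insulator proteins bind chromosomal boundaries and limit contact between an enhancer and promoters on the other side. In flies, zinc finger proteins such as su(Hw), CTCF and pita bind DNA and recruit shared partners, among them Cp190 and mod(mdg4). BEAF-32 binds clusters of the letters CGATA, Dref binds the DNA replication-related element TATCGATA that contains them, and both are known at promoters of broadly expressed genes. Chro and pzg mark the open interbands of polytene chromosomes, and Adf1 activates Adh and other genes from sites near their starts.

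All 10 genes had a peak summit in the conservative list, the stricter of the series lists after irreproducible discovery rate (IDR) analysis, inside the gene or within 5000 bp on either side. Among all coding genes the share was 56.6%, and since this list and window entered the choice of genes, nothing is read from the gap. There were 18 such summits. Adf1 had 3, CTCF had 4, Chro, mod(mdg4) and pita had 2 each, and the other 5 genes had 1 each. In the list of replicate 1 all 10 genes had a summit, against 51.4% of coding genes, and in that of replicate 2 all 10 did, against 48.7%. In the longer ranked list of the replicate pair all 10 had one, but so did 92.8% of coding genes. The genes are long, with a median body of 4511 bp against 2164 bp for all coding genes, which widens the window in which a summit counts.

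The highest peaks of the 10 genes ran from the top of the list to below its middle. The highest peak of Adf1 scored 2546 and that of Chro 2338, ranks 7 and 10 of 6840. Cp190 followed with 871.4, mod(mdg4) with 761.5, pita with 556.5, pzg with 357.9, BEAF-32 with 302.4, Dref with 182.0, CTCF with 141.0 and su(Hw) with 112.9. Their median was 457.2, and the median of the highest score over the 7900 coding genes with a summit was 214.7. Only 0.405% of those genes had a score as high as Adf1 and 0.544% one as high as Chro, while 68.6% equalled or passed CTCF and 78.8% equalled or passed su(Hw). By the highest peak in the window, the group thus held a pair of genes with very strong peaks and 3 genes (Dref, CTCF and su(Hw)) below the median of all coding genes with a summit. Some of these peaks lay at a neighbour's start. Within 1000 bp of an own start pita had 151.1, CTCF 119.7 and mod(mdg4) no summit, and the remaining genes kept their scores. The list and window entered the choice of genes, so nothing is read from the gap between the medians.

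**Figure D1:**
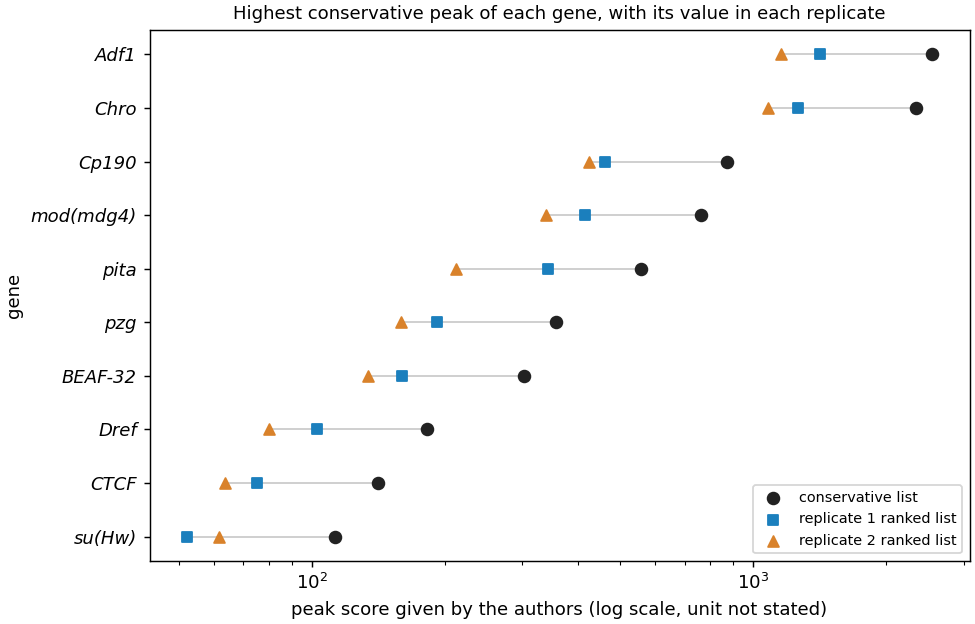
Score of the highest conservative peak of each of the 10 genes (black circles, log scale, unit not stated), with the score of the ranked peak whose summit lay within 100 bp in replicate 1 (blue squares) and replicate 2 (orange triangles). Both replicates place Adf1 and Chro far above the other genes and su(Hw) and CTCF lowest; su(Hw) is the gene where replicate 2 (61.7) lies above replicate 1 (52.1).

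**Figure D2:**
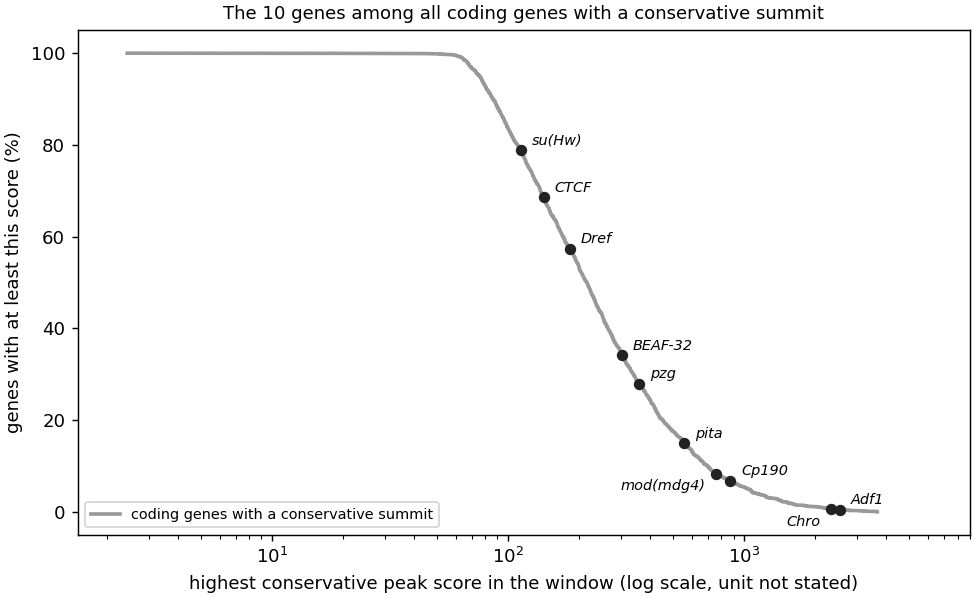
Share of the 7900 coding genes with a conservative summit (y axis, percent) whose highest score in the window is at least the value on the x axis (log scale), with the 10 genes as points. Adf1 and Chro sit at 0.405% and 0.544%, and su(Hw) at 78.8%.

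The order of the genes by highest peak was much the same in the replicates' own thresholded lists. Replicate 2 gave the same place to all 10 genes and replicate 1 to 8 of them. In replicate 1 the top peak of mod(mdg4) was the one inside the gene, with 463.5, just above Cp190 with 460.7, so these neighbours changed places. In replicate 1 su(Hw) held the last place through a different site (52.7, 2632 bp upstream), since its conservative peak did not pass there. The best peak of Adf1 was above that of Chro in both replicates, at rank 8 against 15 in replicate 1 and 6 against 8 in replicate 2. CTCF was above su(Hw) in both replicates, but only narrowly in replicate 2 (63.5 against 61.7, ranks 3099 and 3198). In replicate 1 CTCF had 75.1, at rank 3281, against 52.7 for the different su(Hw) site.

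Cp190 (FBgn0000283, chr3R:15270432-15275241, minus strand), the BTB and zinc finger protein that most fly insulator complexes share, had its peak between its own start and that of CG4338. The summit lay 128 bp upstream of the Cp190 start and 153 bp from the CG4338 start, in a peak at chr3R:15275215-15275550. The score was 460.7 in replicate 1 and 424.3 in replicate 2, ranks 188 and 133 of their thresholded lists, and 871.4 in the conservative list. Replicate 1 had its summit on the same base and replicate 2 had it 22 bp away. Chro (FBgn0044324, chr3L:22873702-22878984, minus strand), a chromodomain protein of interbands, had its main summit 82 bp inside its own 5′ UTR and 187 bp from the start of Ssl1, a gene for a subunit of transcription factor TFIIH. This peak scored 1264 in replicate 1 and 1083 in replicate 2, and the summits lay 7 bp and 1 bp from the conservative one. A second, far weaker Chro peak (96.2) lay past the end of the gene, 99 bp from the start of Arf1. It passed in replicate 1 (59.8) but not in replicate 2, where the ranked peak had a score of 41.4 and a scaled IDR score of 202, below the minimum of 830 that every thresholded peak met.

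The putzig gene pzg (FBgn0259785, chr3L:21286099-21290310, plus strand) encodes a zinc finger protein that works with Chro and, in another complex, with Dref. Its peak at chr3L:21285781-21285989 was centred 173 bp upstream of its start, inside the 5′ UTR of the neighbouring CG12974 and 36 bp from that gene's start. The peak scored 192.0 in replicate 1 and 158.9 in replicate 2, ranks 952 and 866, with summits within 16 bp. The start of pzg itself, 16 bp away, had a separate thresholded summit of score 14.5 in replicate 1, and no list of the series or of replicate 2 had a summit within 100 bp of it. Both pzg and Cp190 thus had their strong peak within 200 bp of their own start and of a neighbour's.

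The mod(mdg4) locus (FBgn0002781, chr3R:21350846-21377401, minus strand) encodes many BTB proteins that share a common front end, to which alternative 3′ parts are joined by trans-splicing from separate precursor RNAs. It was the only one of the 10 genes with no conservative summit within 1000 bp of its own start. The peak at chr3R:21378613-21378909, 1358 bp upstream, lay 218 bp from the start of tin, an NK homeobox gene of heart mesoderm, and scored 416.4 in replicate 1 and 339.7 in replicate 2. An equally high peak (759.0 against 761.5 in the conservative list) lay 11948 bp inside the gene at chr3R:21365236-21365614, with 463.5 in replicate 1 and 297.2 in replicate 2. Its summit was in the 5′ UTR of pre-mod(mdg4)-E, 35 bp from the start annotated for that precursor. The replicates ordered these peaks differently, so neither is called the stronger.

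The sequences under these strong peaks are shown because the summits lie at or between the starts of adjoining genes. They are read on the plus strand of dm6, and capitals mark CGATA on either strand and the whole of TATCGATA. Cp190 is shown from chr3R:15275234-15275469, and TATCGATA there spans the annotated start, 127 bp from the summit. The Chro line gives 29 bases, chr3L:22878880-22878908, with a CGATA 8 bp from the summit. The pzg line gives chr3L:21285908-21285936, with a CGATA on the minus strand 4 bp from the summit. Of the mod(mdg4) lines, the first is the peak beside tin, chr3R:21378659-21378859, and the second the space between precursor starts, chr3R:21365489-21365608. The second line covers part of its peak and leaves out the summit, at 21365453. Neither mod(mdg4) line holds CGATA.
Cp190: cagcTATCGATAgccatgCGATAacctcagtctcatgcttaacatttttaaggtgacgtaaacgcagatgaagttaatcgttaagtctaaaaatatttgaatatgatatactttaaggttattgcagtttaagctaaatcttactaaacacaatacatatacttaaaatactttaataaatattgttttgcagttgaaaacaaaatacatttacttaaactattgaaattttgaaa
Chro: tgtattgcctgtCGATAgctttaaactaa
pzg: aaataattacgtTATCGtaatgaacggca
mod(mdg4) beside tin: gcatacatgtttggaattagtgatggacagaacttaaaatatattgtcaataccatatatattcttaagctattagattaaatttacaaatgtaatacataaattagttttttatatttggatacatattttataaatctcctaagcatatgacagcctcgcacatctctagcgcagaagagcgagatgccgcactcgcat
mod(mdg4) inside: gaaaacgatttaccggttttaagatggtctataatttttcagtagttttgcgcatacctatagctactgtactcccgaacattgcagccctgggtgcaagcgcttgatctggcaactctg

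The zinc finger gene CTCF (FBgn0035769, chr3L:7353578-7356713, minus strand), whose product binds boundaries in flies and vertebrates, had 4 conservative summits, more than any other of the 10, with scores from 2.29 to 141.0 beside a median of 128.2 over the whole list. The highest, at chr3L:7360292-7360661, lay 3764 bp upstream and 84 bp from the start of Sec63, a gene for a component of the endoplasmic reticulum translocation channel. It scored 75.1 in replicate 1 and 63.5 in replicate 2. The peak in a CTCF intron, 204 bp downstream of the start, scored 60.0 in replicate 1 and 46.5 in replicate 2, with summits 6 bp and 75 bp away. The other 2 rest on less. The summit 4732 bp upstream had ranked scores of 35.1 in replicate 1 and 34.0 in replicate 2, and neither replicate's thresholded list held it. The summit 3 bp from the CTCF start had a conservative score of only 2.29, rank 6831, and no ranked summit within 100 bp in either replicate. It overlaps the intron peak and an annotated fragment of the Quasimodo transposable element.

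The gene su(Hw) (FBgn0003567, chr3R:14304455-14308589, minus strand), known for the protein that binds the gypsy insulator, had its conservative summit 375 bp upstream and 125 bp from the start of Polr2I, a gene for an RNA polymerase II subunit. The ranked score was 52.1 in replicate 1 and 61.7 in replicate 2, but in replicate 1 the scaled score was 406 and the peak did not pass. Replicate 1 instead passed a peak 2632 bp upstream, 859 bp from the start of CG31321, with 52.7, and replicate 2 had no ranked summit within 100 bp of it. The count of 1 summit in each replicate therefore refers to different sites. Dref (FBgn0015664, chr2L:9964147-9967229, minus strand) had its peak over a promoter shared with the ribosomal protein gene RpL13, whose start is 84 bp away. The score was 102.8 in replicate 1 and 80.1 in replicate 2, ranks 2277 and 2344. Its conservative summit lay 29 bp upstream of Dref and 55 bp from RpL13, with replicate summits 22 bp and 88 bp away, so the peak cannot be assigned to either gene.

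These sequences, read on the plus strand of dm6, are shown for the CGATA they hold or lack, in capitals as above. Dref is the whole space between the starts, chr2L:9967230-9967312, with a CGATA 14 bp from the summit. CTCF beside Sec63 is chr3L:7360377-7360560, with TATCGATA 47 bp from the summit. CTCF upstream is chr3L:7356714-7356855, which begins 1 base before the CTCF start and holds TATCGATA. It leaves out the summit of its peak, at 7356710. The su(Hw) line is chr3R:14308864-14309064, centred on the summit, and holds none. The su(Hw) peak runs on to 14309148 and has a CGATA beyond this line, 151 bp from the summit.
Dref: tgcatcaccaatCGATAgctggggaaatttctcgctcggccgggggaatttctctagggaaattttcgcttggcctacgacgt
CTCF beside Sec63: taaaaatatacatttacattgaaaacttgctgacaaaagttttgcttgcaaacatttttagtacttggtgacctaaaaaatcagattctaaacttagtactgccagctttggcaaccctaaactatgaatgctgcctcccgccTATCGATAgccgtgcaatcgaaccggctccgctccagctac
CTCF upstream: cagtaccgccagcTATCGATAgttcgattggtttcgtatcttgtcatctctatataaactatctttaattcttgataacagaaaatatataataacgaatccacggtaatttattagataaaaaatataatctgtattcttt
su(Hw): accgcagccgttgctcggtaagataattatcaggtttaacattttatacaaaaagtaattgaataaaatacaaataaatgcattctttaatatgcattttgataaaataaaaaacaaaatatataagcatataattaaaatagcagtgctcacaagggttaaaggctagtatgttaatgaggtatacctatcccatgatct

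The other 3 genes lie on arm 2R. Adf1 (FBgn0284249, 6662265 to 6668085, plus strand) had the strongest peak of the 10 genes, in an intron with the summit 783 bp past a start, at 6662865 to 6663255. It scored 1414 in replicate 1 and 1156 in replicate 2, ranks 8 and 6, with summits 3 bp and 6 bp from the conservative one. The remaining Adf1 peaks were of another order. One in an intron, 3780 bp past a start and over an annotated S transposable element, scored 50.7 in replicate 1 and 35.8 in replicate 2, and one past the gene, 68 bp from the start of CG9410, scored 56.1 and 40.1 in the same order. Both passed in replicate 1 and stayed below the minimum in replicate 2, at scaled scores of 671 and 766. A further summit in the intron, 1288 bp downstream of the start in replicate 1 and 1273 bp in replicate 2, passed in both replicates (44.1 and 53.3, scaled scores of 1000), but neither ranked series list had a summit within 100 bp of it.

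The zinc finger gene pita (FBgn0034878, 23548967 to 23554712, minus strand) had its strong peak at the far end. At 23547955 to 23548242, past the end of the gene and in the 5′ UTR of wmd, 62 bp from the wmd start, it scored 342.5 in replicate 1 and 212.2 in replicate 2. The peak at the pita start, 123 bp downstream in the 5′ UTR, scored 89.2 and 66.6 in the same order, with summits 1 bp and 0 bp from the conservative one. The start of pita therefore had a called peak in both replicates, but at 151.1 in the conservative list against 556.5 for the peak at wmd. BEAF-32 (FBgn0015602, 14770469 to 14772630, plus strand) had a narrow peak of 172 bp, 79 bp upstream of its first start, with 159.7 in replicate 1 and 133.9 in replicate 2. A second site 11 bp from another BEAF-32 start passed in replicate 1 (56.8) and in the other thresholded series list (83.3), and missed the conservative list at a scaled score of 725.

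**Figure D3:**
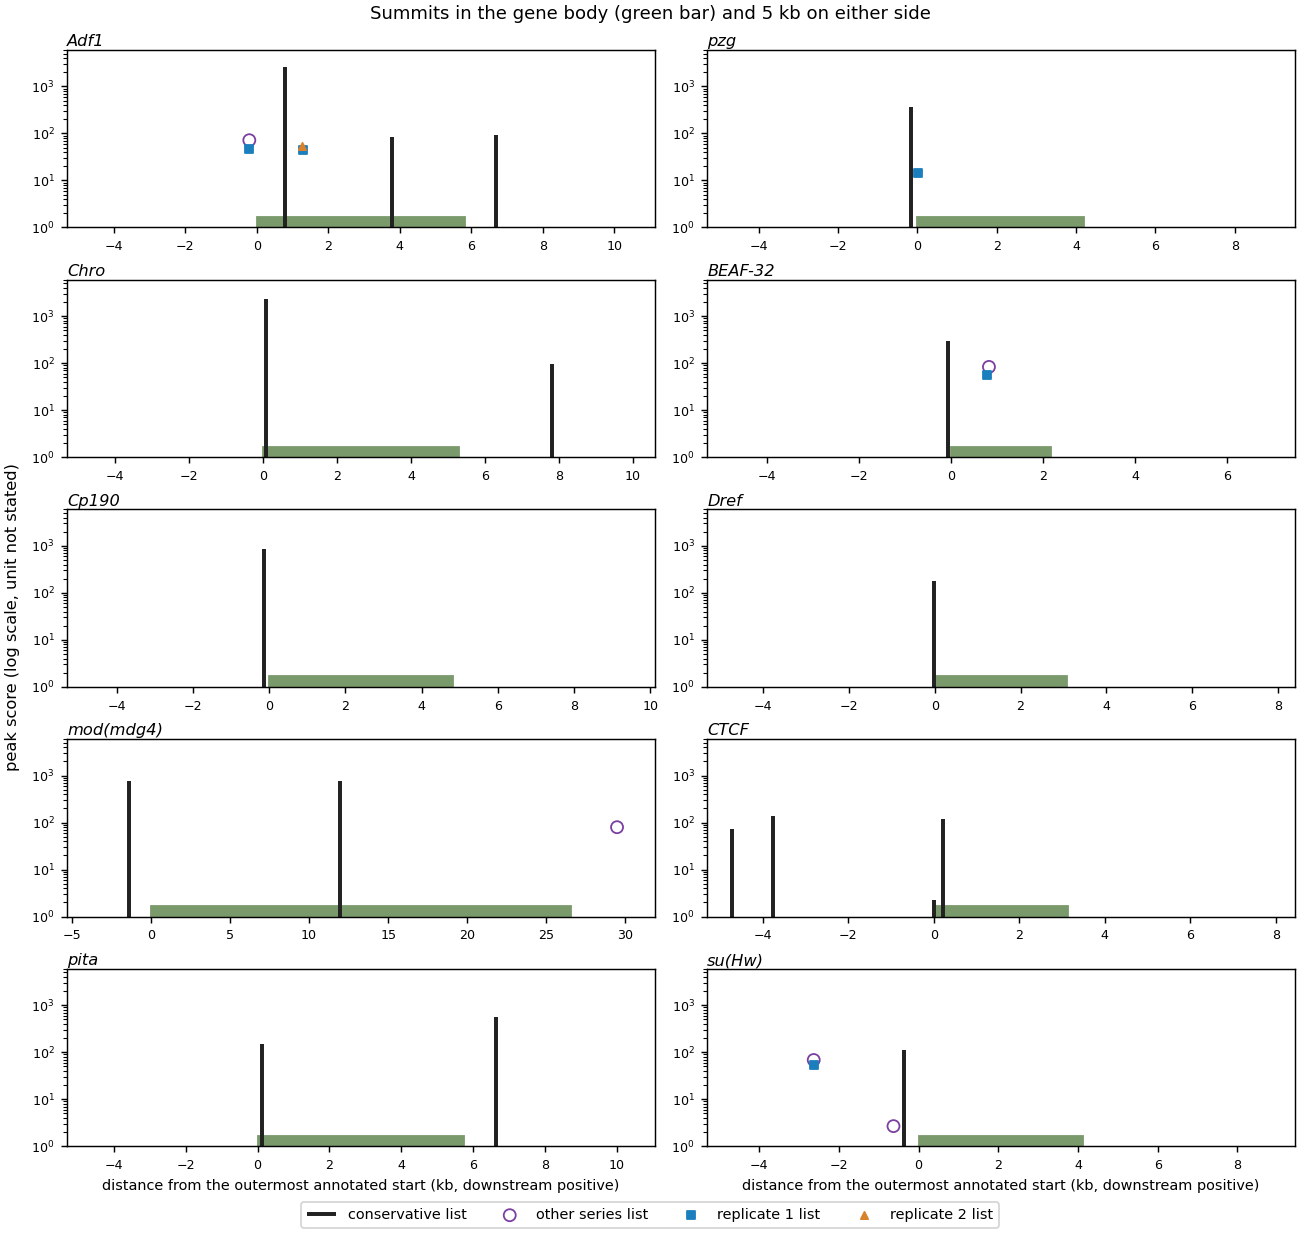
Summits around each of the 10 genes, with the distance from the outermost start along the x axis (kb, downstream positive) and the peak score on a log y axis; the green bar is the gene body. Black lines are conservative summits, and symbols are summits of the other series list (circles), replicate 1 (squares) and replicate 2 (triangles) with no conservative summit within 100 bp. The tallest line stands within 1 kb of the start for Adf1, Chro, Cp190, pzg, BEAF-32, Dref and su(Hw), and elsewhere for mod(mdg4), pita and CTCF.

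Most of the genes had a summit near a start, often one that a neighbour could claim. A conservative summit lay within 1000 bp of an own start in 9 of 10 genes, against 26.7% of coding genes. This measure comes from the same list that chose the genes, so nothing is read from the difference. Of the 18 summits, 10 were within 1000 bp of an own start, but only 8 were nearer to a start of the gene itself than to that of any other coding gene. For 5 of the 10 genes (Adf1, Chro, Cp190, BEAF-32 and Dref) the highest peak was nearest to an own start. By position 7 summits were intergenic, 6 in 5′ UTRs and 5 in introns, and 0 were in coding exons or 3′ UTRs. For these counts of summits and highest peaks the shares over the whole list were not taken, so nothing is read from them.

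Head-to-head arrangement was common, but over all coding genes it went with summits near starts, and summits entered the choice of genes. A coding gene on the other strand began within 1000 bp upstream of Chro (Ssl1, 105 bp), pzg (CG12974, 137 bp), Adf1 (Dpit47, an Hsp90 co-chaperone gene, 147 bp), Cp190 (CG4338, 281 bp), su(Hw) (Polr2I, 500 bp) and Dref (RpL13, 84 bp). That is 6 of 10 genes, against 36.2% of all coding genes, and nothing is read from the gap for that reason. Over all coding genes, 44.4% of the 5052 head-to-head genes had a conservative summit within 1000 bp of a start and 16.7% of the 8916 others did. Whether a summit there belongs to either gene of a pair cannot be told from position.

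The letters CGATA, bound by BEAF-32 and contained in the Dref element, lay within 50 bp of 8 of the 18 summits, against 13.7% of all 6824 conservative summits on the chromosome arms. All 4 CTCF summits had one, and the others were the main peaks of Chro, Dref and pzg and the peak at the pita start, so the 8 come from only 5 genes. In the replicates' own lists the count was 6 of 20 in replicate 1 and 3 of 14 in replicate 2, against 13.9% and 14.2% of all summits in those lists. Without replicate 1 the count is thus less than that in the conservative list by more than 1.5 times. The whole element TATCGATA was within 50 bp of 2 summits, both at CTCF, against 1.42% of all summits, and of 1 summit in replicate 1 and 0 in replicate 2, against 1.48% and 1.35% of all summits in those lists. The CTCF summit of score 2.29 is among them, and without it the counts were 7 for CGATA and 1 for TATCGATA. Motif 1, GGTCACAC, was within 50 bp of 0 summits (0.733% of all), GAGAG of 1 (8.76%), and TAATCC, a motif known for bicoid-type homeodomains such as that of Ptx1, of 1, in the CTCF intron (3.81%). Both strands were searched, and a match is a description of letters, not a site.

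Seen from the starts instead of the summits, the element was in most of the 10 genes. These genes were picked by name with their peaks known, and this count has no alternative window beside it. The share among genes with a summit near a start was not taken, so nothing is read from the gaps that follow. TATCGATA occurred between 250 bp before and 50 bp after the outermost start in 6 of the 10 genes (Cp190, BEAF-32, CTCF, mod(mdg4), pita and Adf1), against 9.36% of all coding genes. CGATA alone was there in 8 of 10, against 47.4%, and GGTCACAC in su(Hw) alone, against 7.70%. TAATCC was in 0 of the 10, against 8.76% of all. At Cp190, whose peak includes the element, it lay 127 bp from the summit. The bases within 50 bp of the summits ranged widely in composition. Their GC content was 18.8% at Cp190, 17.8% at mod(mdg4) beside tin and 17.8% at su(Hw), 29.7% at Adf1 and 32.7% at Chro, but 49.5% at Dref and between 39.6% and 54.5% at the 4 CTCF summits and at Arf1. The median over the 18 summits was 32.2%, against 31.7% over all conservative summits.

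A thresholded summit lay within 100 bp in both replicates for 12 of the 18 conservative summits (66.7%), against 56.5% of all conservative summits. The 6 that missed were the su(Hw) peak, the Chro peak at Arf1, 2 CTCF peaks and 2 Adf1 peaks, with conservative scores from 2.29 to 112.9. Of these, 3 passed in replicate 1 alone, 1 in replicate 2 alone and 2, both at CTCF, in neither. For 9 of 10 genes the highest peak was matched in both, and su(Hw) was the exception. In the longer ranked lists 17 of the 18 had a summit in both replicates, all but the CTCF summit of score 2.29. The share over all conservative summits was not taken for the ranked lists, so nothing is read from this count.

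Few sites around these genes came close to the IDR minimum without passing. The ranked list of the replicate pair had 109 summits around the 10 genes. Of these 18 (16.5%) had a scaled score of at least 830, against 7.65% of all 91374 summits in that list, and nothing is read from the gap since the list entered the choice of genes. The other 91 were below, with a median of 53. The lowest that passed had 964 (CTCF). The next ones below the minimum had 725 and 687, both at BEAF-32, and 720 at pzg, and after them came 319. All 18 that passed were kept in the conservative list. For the window of 5000 bp, the farthest summit inside was 4732 bp from CTCF and the nearest one outside was 5395 bp from Adf1.

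**Figure D4:**
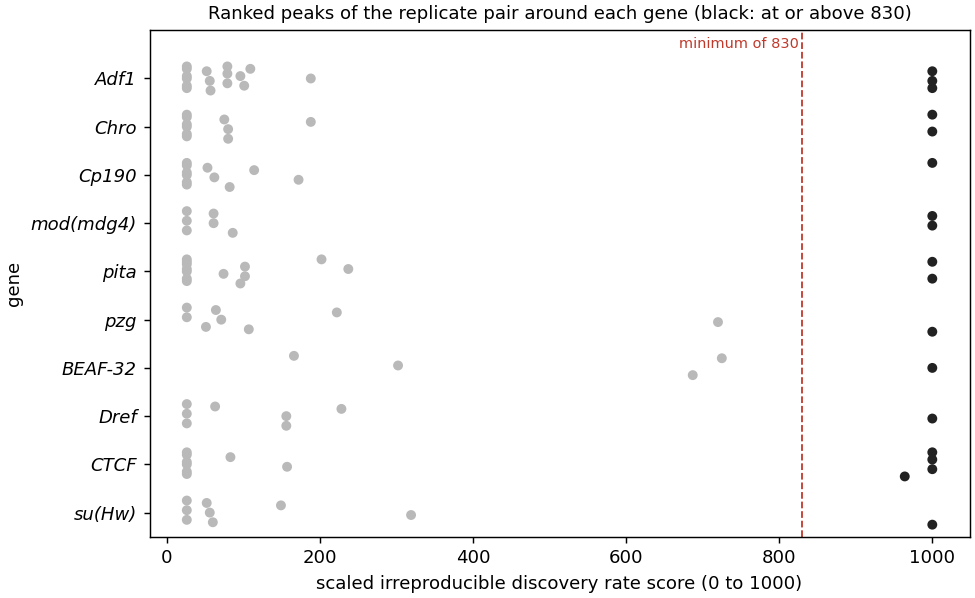
Scaled IDR score (x axis, up to 1000) of the 109 ranked summits of the replicate pair around the 10 genes, 1 row per gene with points spread vertically for sight; black points are at or above the dashed minimum of 830 and grey points below it. Between 319 and 830 there are 3 points, 2 at BEAF-32 and 1 at pzg.

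A list of 31 other genes for insulator, cohesin, promoter and related chromatin factors was made with earlier results of these data known. Of these 20 had a conservative summit in the same window (64.5%), against 56.6% of coding genes, a share near that background. Within 1000 bp of a start 13 had one (41.9%), against 26.7%. Ibf1 and Ibf2 entered the 20 through the same summit (112.3). Elba2 and insv entered both the 20 and the 13 through the same summit (95.8). The median highest score of the 20 was 188.9, against 214.7 for all coding genes with a summit. The highest were Trl, the GAGA factor gene (1783, with 976.4 in replicate 1 and 819.6 in replicate 2), JIL-1, a histone kinase gene (720.1), Map60 (603.9, nearest to CG1827), shep (519.1) and Cap-H2, a condensin gene (368.1, nearest to MED7). The 11 genes with no conservative summit were the cohesin genes SMC1, SMC3 and vtd, the cohesin loader Nipped-B, Clamp, E(bx), Elba1, HIPP1, ZIPIC, rump and z.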

How the data were processed

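The data are peak lists of chromatin immunoprecipitation from 2 biological replicates, on assembly dm6 per the labels. The authors deposited ranked and thresholded lists per replicate and for both together. Each deposited list holds a peak score with no stated unit, a scaled IDR score of at most 1000, a −log10 q value and a summit offset. Which aligner and peak caller made the lists was not given in the sources used here. Read depth is unknown, so no interval or limit on single peaks is given.

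Replicate values come from each replicate's own lists, 5480 and 4825 thresholded and 68758 and 44653 ranked peaks. The other lists pool both replicates. The 10 genes and the list of 31 were chosen with earlier results of these data known. Named genes are the 10, the nearest genes at their peaks, and, of the 31, the 5 highest and those without a summit. Summits were set against Ensembl release 115 genes and the release 6 genome sequence from RefSeq. Summits within 100 bp were taken as the same site. Head-to-head means opposite-strand coding starts within 1000 bp. With 1 group and genes chosen from these peaks, no test was run. The functions were tested on simulated data. Alternatives were other windows, lists and each replicate alone, and, chosen after seeing the data, leaving out peaks scoring below 10. Python 3.11.15, pandas 2.3.3, numpy 2.4.6 and matplotlib 3.10.9 were used.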

Additional observations from a re-analysis of the deposited data

Results flagged for a closer look

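The other thresholded list of the series, with 7439 peaks, held 5 summits around the 10 genes with no conservative summit within 100 bp. They are singled out because the main counts do not use that list. It is longer than the conservative list of 6840, and having no conservative summit is how they were defined, so their number is a description. At BEAF-32 it was the site at 14771290 on 2R (83.3). At su(Hw) there were 2, at 14309217 (2.69) and 14311218 (68.6) on 3R. At mod(mdg4) it was the site at 21347915 on 3R (79.8), past the gene and 1686 bp from the start of aus, with a ranked score of 40.1 and a scaled score of 829 in replicate 2 and no ranked summit within 100 bp in replicate 1. At Adf1 it was the site at 6662057 on 2R (71.8), 61 bp from the start of Dpit47. In the ranked list of the replicate pair the BEAF-32, su(Hw) and Adf1 sites had scaled scores of 725, 52, 56 and 188, below 830. The cause of the gap between the lists was not tested.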

How the results depend on the processing

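Across 8 results, 45 of 57 alternative values stayed within 1.5 times the reported one. Counting summits in the gene body alone left 5 of the 10 genes (against 14.9% of coding genes), 7 summits and 8 of the 31 other factor genes, and a 10000 bp window gave 28 summits. CGATA was near 13 summits within 150 bp (35.0% of all), and TATCGATA near 1 within 25 bp (0.703% of all) and 5 within 150 bp (4.32% of all). Each of these settings changed the width counted, and whether width alone moved the values was not tested. Leaving out summits scoring below 10, chosen after seeing the data, left 1 summit with TATCGATA, since the other was such a peak. Leaving out a replicate gave 13 to 18 of the other factor genes, 3 to 6 summits with CGATA and 0 to 1 with TATCGATA, the lower value without replicate 1 each time, and the cause was not tested. The 10 genes kept a summit in every thresholded list, without peaks scoring below 10 and at a scaled score of 1000. They also kept one in windows of 1000 and 10000 bp (the last against 71.4% of coding genes). No share of coding genes was taken for the 1000 bp window, the scaled score, leaving out low peaks or the other series list. Nothing is read from those counts. No paired analysis was possible because both samples form 1 group. Read depth is unknown, and 1 group without an analysed control gives no test of occupancy.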

Other observations

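The CTCF summit with a score of 2.29 belonged to a small class. Of the 6840 conservative peaks 176 (2.57%) scored below 10, against a median of 128.2 over the list, and 139 of them had the highest scaled score of 1000. Of the 176, 175 (99.4%) overlapped another conservative peak, against 660 of the other 6664 (9.90%). Without the CTCF summit the 10 genes had 17 summits, and all 10 kept their place by highest score.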
